A study of Mus musculus with 8 samples.

Results

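This account covers 36 genes whose products carry a cell through G2 and mitosis. They form a named list, chosen with earlier results of these data known. All 36 are among the 23366 gene symbols of the count tables. They were followed in 8 RNA-seq libraries of mouse intestinal epithelial cells, sorted by flow cytometry at 50000 cells per library. Control mice carried Sox4 alleles flanked by loxP sites (Sox4fl/fl). Sox4cKO mice carried the same floxed alleles plus 1 copy of a villin-driven Cre (vilCre+/-), so recombination was limited to cells in which the villin promoter had been active, the gut epithelium, and began before birth. All were male littermates of 6 weeks. From each animal CD326+ cells (CD326 is the epithelial surface protein Epcam) were sorted as CD44minus, enriched for villus, and CD44plus, enriched for crypt. There were thus 4 groups of 2 libraries, from 2 animals per genotype. With 2 animals per genotype, p-values rest on a small sample of animals.

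The epithelium of the intestine is renewed from its crypts, where stem cells and their transit-amplifying progeny divide, while the cells that cover the villus have left the cycle. Entry into mitosis is driven by cyclin-dependent kinase 1 bound to cyclins A and B. Exit follows when the anaphase-promoting complex, guided by Cdc20, marks cyclin B and securin for destruction once the spindle checkpoint is satisfied. Most of these genes are transcribed together late in the cell cycle, under DREAM repressor complexes in resting cells and B-Myb and Foxm1 activator complexes in cycling cells, which act at the cell cycle homology element of their promoters.

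Promoters are shown because all 36 members had positive fitted differences between the gates (22 and 18 of them called in control and Sox4cKO, below). The letters printed cover only bases before the start. In some members, Aurka, Cenpa, Kif4 and Plk1 among them, the core letters of that element were found only after the start. RefSeq (GRCm38.p6) held a promoter for 29 of the 36 genes, from 250 bases before to 50 after the start. The letters TTTGAA, the core of the cell cycle homology element, were searched on both strands (TTCAAA on the other). They occurred in 21 of the 29 promoters (72.4%), against 20.2% of 27025 genes with a promoter in the same table. Its variant TTCGAA, which reads the same on both strands, occurred in 4 (13.8%) against 1.80%. CCAAT, the letters bound by NF-Y (ATTGG on the other strand), occurred in 22 (75.9%) against 41.1%. In the 100 bases before the start the shares were 24.1% against 6.76% for TTTGAA and 69.0% against 21.6% for CCAAT, and TTCGAA was in 0 of the 29 (0.0%) against 0.437%. Genes with several starts count once, at 1.07 starts per member and 1.22 per gene. A match is a description of letters and not of a bound site. A member could be printed where TTTGAA lay wholly inside the last 150 bases before its start, and later matches did not count. Members with more than 30 of these bases inside the annotated gene were left out, Ube2c (match at -29) among them. A limit to the 12 with the highest mean CPM (reads of a gene scaled to a common library total) removed none. Shown are these bases of the 6 remaining members with such a match nearest to the start. They are chr10:69352913-69353062 (minus strand) for Cdk1, chr4:118437344-118437493 (minus) for Cdc20 and chr19:37376232-37376381 (plus) for Kif11. The others are chr11:99024190-99024339 (minus) for Top2a, chr7:80294326-80294475 (plus) for Prc1 and chr7:135716380-135716529 (minus) for Mki67. Each is written 5′ to 3′ along its gene, with matches of these motifs on either strand in capitals.
Cdk1: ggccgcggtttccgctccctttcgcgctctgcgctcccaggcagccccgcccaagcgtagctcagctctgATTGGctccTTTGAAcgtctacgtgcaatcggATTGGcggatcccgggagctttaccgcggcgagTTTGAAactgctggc
Cdc20: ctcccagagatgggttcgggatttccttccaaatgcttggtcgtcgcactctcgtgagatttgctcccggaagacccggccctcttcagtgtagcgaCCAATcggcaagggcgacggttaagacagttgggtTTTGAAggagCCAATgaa
Kif11: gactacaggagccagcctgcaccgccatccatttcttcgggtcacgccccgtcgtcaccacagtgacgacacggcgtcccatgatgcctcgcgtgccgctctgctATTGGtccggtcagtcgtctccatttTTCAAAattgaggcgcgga
Top2a: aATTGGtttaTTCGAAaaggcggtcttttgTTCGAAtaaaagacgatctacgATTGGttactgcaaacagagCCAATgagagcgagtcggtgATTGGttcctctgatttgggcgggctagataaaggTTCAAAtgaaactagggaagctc
Prc1: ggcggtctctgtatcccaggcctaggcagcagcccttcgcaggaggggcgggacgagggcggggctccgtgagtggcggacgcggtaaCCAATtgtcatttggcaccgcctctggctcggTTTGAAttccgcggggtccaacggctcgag
Mki67: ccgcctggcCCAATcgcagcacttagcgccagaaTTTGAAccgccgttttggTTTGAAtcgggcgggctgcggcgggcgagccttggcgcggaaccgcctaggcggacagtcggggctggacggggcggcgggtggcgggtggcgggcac
In these 6, the first base of the TTTGAA match nearest to the start lay at -15 in Cdk1, -18 in Cdc20, -19 in Kif11, -23 in Top2a, -30 in Prc1 and -98 in Mki67.

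Depth and purity differed between the libraries. Gene counts ranged from 886194 to 6963345 in CD44minus and from 6007554 to 13238050 in CD44plus. Background was read from 1449 receptor genes of smell and pheromones, taken to be silent in the gut. Spread per kb over all genes, its share of gene counts in CD44minus was 15.5% and 5.80% for control and 17.6% and 0.792% for Sox4cKO, and it was 0.292% to 1.53% in CD44plus. Values come as replicate 1 and 2 of control, then replicate 1 and 2 of Sox4cKO, here and in all lists of 4 libraries. On the first principal component (68.1% of the variance) replicate 2 of Sox4cKO CD44minus took a place among CD44plus samples at 84.2, while the other 3 CD44minus libraries lay between -185 and -104. Its villus markers (8 genes) nevertheless summed to 40593 CPM, against 7825 to 18545 in the other CD44minus libraries and 898 to 1323 in CD44plus. The 8 crypt markers summed to 298 to 660.4 CPM in CD44minus and 5193 to 6784 in CD44plus. The 7 epithelial markers, Epcam and villin (Vil1) among them, were read in every library. Sox4 itself stood at 128 and 120.2 CPM in control CD44plus against 17.8 and 25.7 in Sox4cKO CD44plus, and at 0.272 to 8.26 CPM in CD44minus. CPM are TMM-scaled throughout (trimmed mean of M values, a correction for libraries dominated by a few genes).

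All 36 mitotic genes had higher CPM in the crypt-enriched gate. For every one of them the 4 CD44plus libraries lay above the 4 CD44minus libraries, a separation shown in this direction by 17.1% of the 20427 genes tested. The gap between the lowest CD44plus and the highest CD44minus library ran from 1.46-fold for Ttk to 8.81-fold for Top2a. Summed over the 36 genes, CD44minus held 753, 684, 781 and 816 CPM and CD44plus 6435, 6711, 5388 and 6739 CPM. In sorted bulk RNA, fewer dividing cells and less mitotic RNA per cell cannot be told apart. Without TMM factors 32 of the 36 still separated, the exceptions being Ccnb1, Cdc25c, Bub1 and Ttk. After subtraction of the background all 36 did. Summed markers of other cells were also higher in CD44plus. Those of T cells and intraepithelial lymphocytes (10 genes) summed to 167 to 855 CPM in CD44minus and 2022 to 5185 in CD44plus, and those of mast cells (6 genes) to 59.4 to 81.7 and 1887 to 17506. Those of B, plasma and myeloid cells (10 genes) summed to 40.9 to 79.2 and 184 to 773, and those of stroma and endothelium (7 genes) to 25.6 to 122 and 183 to 466. Single genes did not all follow these sums. In CD44plus, Vim (115 to 294 CPM) and Pecam1 (22.4 to 165) made up most of the stroma and endothelium sum. Col1a1, Col1a2, Col3a1, Dcn and Kdr were lower there than in every CD44minus library but Sox4cKO replicate 2. Hdc, Cd79a, Cd79b, Ms4a1, Mzb1 and Csf1r overlapped between the gates. Of the B, plasma and myeloid list and of the stroma and endothelium list, 1 gene each was at 0 in Sox4cKO CD44minus replicate 2. The part of these other cells in the gate difference of mitotic genes was not tested.

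**Figure D1:**
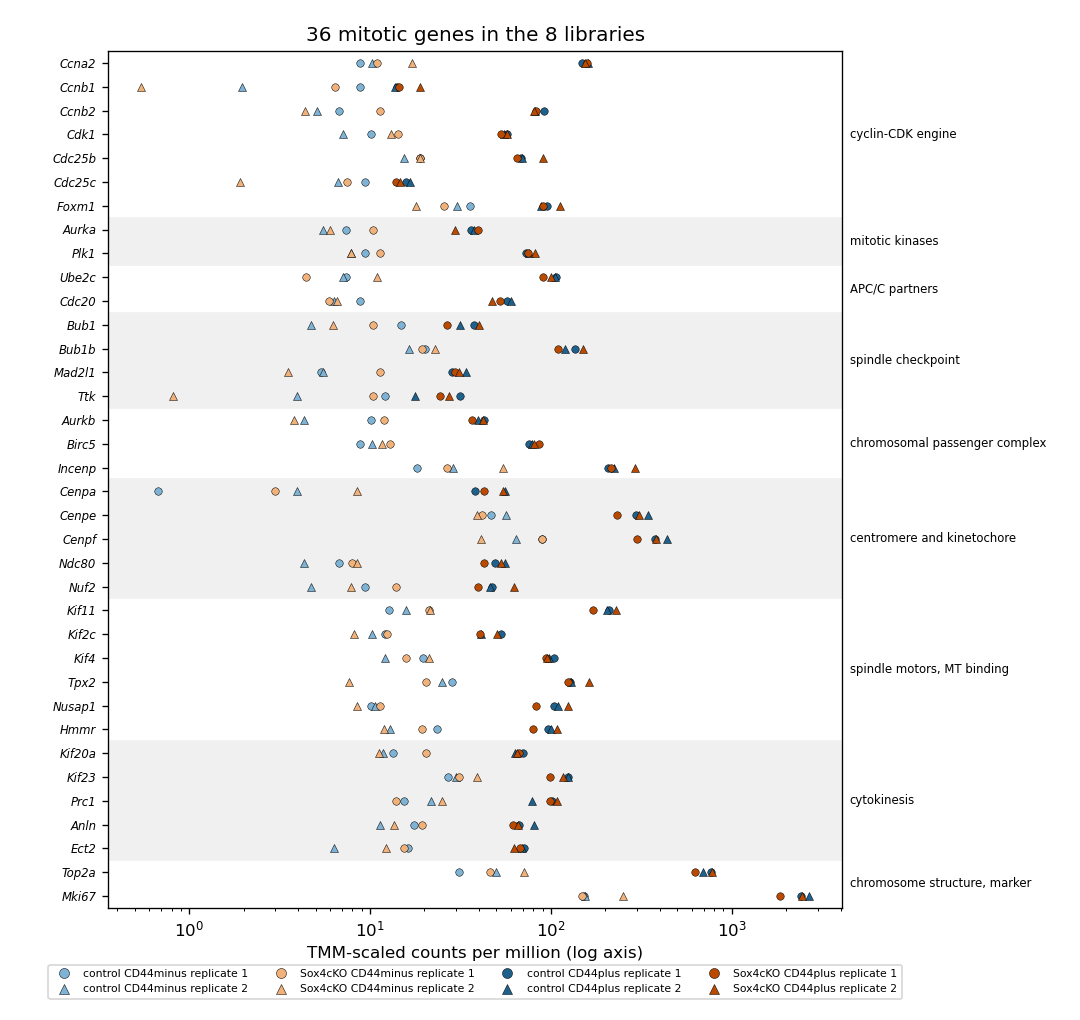
TMM-scaled CPM of each of the 36 genes on a log axis, 1 point per library, with genes grouped by role on the right. Dark points (CD44plus) lie to the right of light points (CD44minus) in every row, and the gap is narrowest for Ttk (1.46-fold) and widest for Top2a (8.81-fold).

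In control mice, edgeR's quasi-likelihood test over all genes (adjusted p at most 0.05) called 22 of the 36 higher in CD44plus, where 2.01% of tested genes were called higher and 2.46% in either direction. In Sox4cKO mice it called 18 of 36, where 1.66% and 2.59% were. At an unadjusted p under 0.05 these numbers were 33 and 35, where 23.0% and 17.7% of all genes were. The median log2 fold change over the 36 was 2.65 in control and 2.39 in Sox4cKO, against -0.19 and -0.48 over all genes tested. In both genotypes 15 genes were called, in control alone 7 (Anln, Aurka, Aurkb, Cdk1, Ect2, Incenp, Kif20a), in Sox4cKO alone 3 (Kif2c, Prc1, Tpx2) and in neither 11. Being called in 1 genotype alone does not show a difference between them. That difference, tested as the interaction in edgeR, gave 0 calls among the 36 and among all genes (0.0%). Its median SE over the 36 was 0.86 on the log2 scale, too wide to show that the genotypes are alike. With the animal as a block, 30 and 32 of the 36 were called in control and Sox4cKO (7.37% and 3.95% of genes higher), DESeq2 called 31 and 29 (5.04% and 3.18%), and limma-voom called 30 and 32 (4.63% and 2.88%). In the fit of the 4 control libraries alone 34 were called, among 54.9% of genes called either way. The biological coefficient of variation (spread between libraries of a group) was 0.616 in the fit of all 8 libraries. It was 0.291 in the 4 control libraries alone and 0.766 in the 4 Sox4cKO libraries. Unless another fit is named, verdicts on single genes below come from the fit of all 8 libraries without the animal block. A gene not called there may be called in other fits. Leaving out 1 library moved the calls of all genes along with those of the members. In control 0 members were called without control CD44minus replicate 1 (0.0245% of genes higher), CD44minus replicate 2 (0.0%) or CD44plus replicate 2 (0.0291%), and 1 without CD44plus replicate 1 (0.108%). The members' median log2 difference in these fits was 2.41 to 2.91. In control 34 were called without either Sox4cKO CD44minus replicate 1 or 2 (24.1% and 22.8%) and 13 without Sox4cKO CD44plus replicate 2 (1.19%). The Sox4cKO calls fell to 0 without Sox4cKO CD44plus replicate 2 (0.0534% of genes), or when only the 4 Sox4cKO libraries were fitted (0.0%). They numbered 11 and 10 without control CD44minus replicate 1 and 2 (1.31% and 0.876%), and 8 without control CD44plus replicate 1 or 2 (0.643% and 0.684%). They numbered 33 without Sox4cKO CD44minus replicate 2, the library that stood apart (25.0% of genes higher), and 36 without its partner (8.45%). All fitted differences kept the positive sign in each of these fits.

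**Figure D2:**
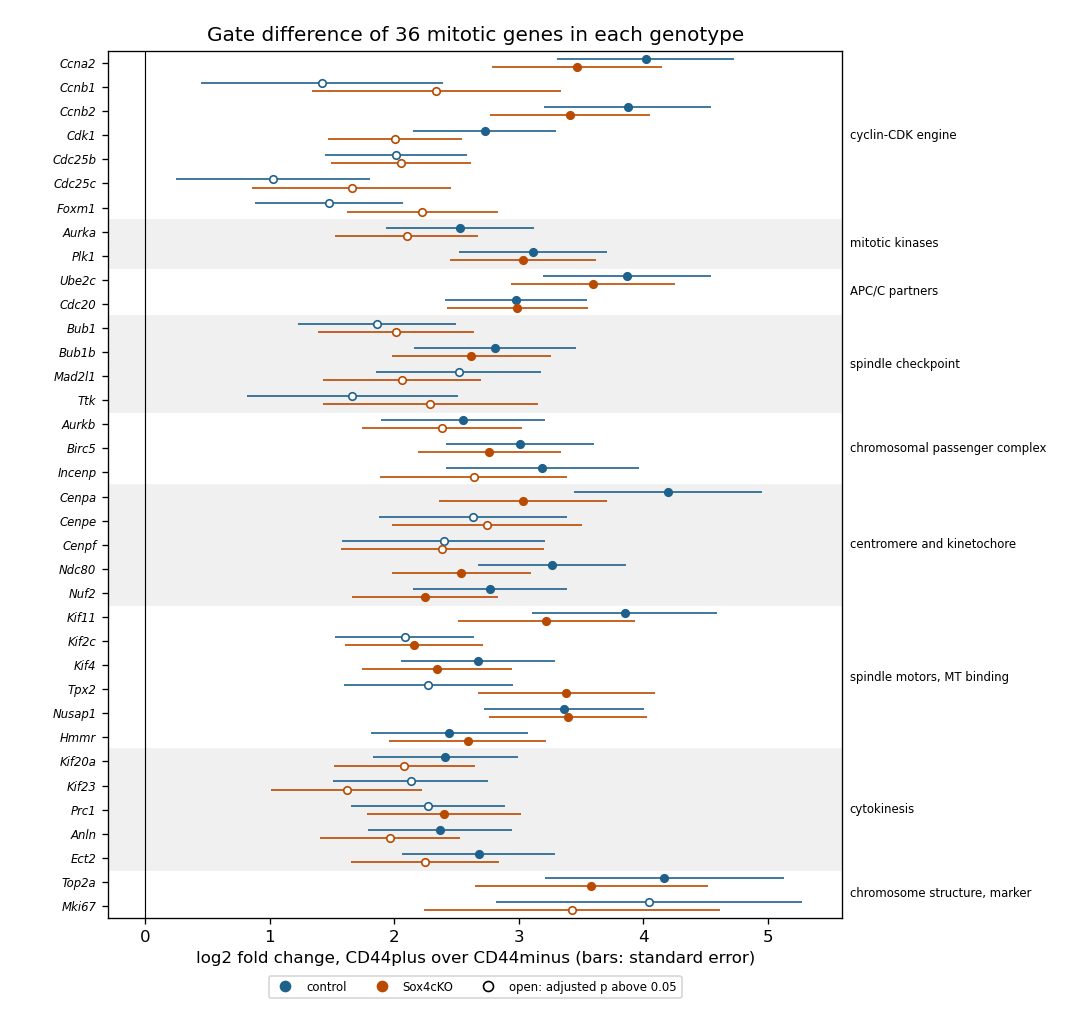
Log2 fold change of CD44plus over CD44minus for the 36 genes, with bars of 1 standard error, in control (blue) and Sox4cKO (orange), from the edgeR fit of all 8 libraries. All points lie to the right of 0, from 1.02 for Cdc25c to 4.20 for Cenpa in control and from 1.62 for Kif23 to 3.60 for Ube2c in Sox4cKO, and open symbols did not pass the test.

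The cyclins of mitosis and their kinase formed the first group. Ccna2, cyclin A2, which serves S phase and mitotic entry, stood at 8.76, 10.2, 10.9 and 17.2 CPM in CD44minus and at 149, 161, 159 and 154 CPM in CD44plus. The 4 CD44plus libraries lay within 1.08-fold of each other, and the log2 fold change between gates was 4.02 (SE 0.71, edgeR adjusted p = 0.0140) in control and 3.47 (SE 0.68, edgeR adjusted p = 0.0160) in Sox4cKO. Ccnb2, one of the B-type cyclins, was at 6.74, 5.11, 11.4 and 4.36 CPM in CD44minus and at 91.1, 81.3, 82.7 and 80.4 CPM in CD44plus. It rose by 3.88 (SE 0.67) in control and by 3.41 (SE 0.64) in Sox4cKO. Cdk1, the kinase these cyclins switch on, was at 10.1, 7.08, 14.4 and 13.1 CPM in CD44minus and 57.1, 55.3, 52.9 and 57.1 in CD44plus. Both Sox4cKO libraries lay above both controls in CD44minus, and the gate difference passed in control (2.73, SE 0.57) while reaching 2.01 (SE 0.54, edgeR adjusted p = 0.057) in Sox4cKO.

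Other members of that group were read at lower contrast. Ccnb1, cyclin B1, was the lowest of all 36 per length in CD44plus (6.13 CPM per kb of transcript) and was at 8.76, 1.97, 6.44 and 0.545 CPM in CD44minus against 14.0, 13.7, 14.5 and 18.9 in CD44plus. The lowest CD44minus values rest on 5 and 2 reads. Of its transcript's 50-base words, 42.1% also occur in other genes, the pseudogene Ccnb1-ps among them, so its level and folds are uncertain. The phosphatase genes Cdc25b and Cdc25c, which remove the inhibitory phosphates from Cdk1, were at 65.2 to 90.9 CPM and 13.9 to 16.6 CPM in CD44plus. Their gate differences in control were 2.02 (SE 0.57) and 1.02 (SE 0.78), and neither passed in either genotype. Foxm1, the transcription factor of late cell cycle genes, was at 35.7, 30.3, 25.8 and 17.98 CPM in CD44minus and 95.3, 87.9, 91.0 and 113 in CD44plus. Its highest CD44minus libraries were both control, and its gate difference was 1.47 (SE 0.59) in control and 2.23 (SE 0.61) in Sox4cKO, without a call.

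Aurora A (Aurka), which matures centrosomes, and Polo-like kinase 1 (Plk1), which acts throughout mitosis, were both called in control, and Plk1 also in Sox4cKO. Plk1 was at 9.43, 7.86, 11.4 and 7.90 CPM in CD44minus and 73.2, 76.0, 74.6 and 82.1 in CD44plus, with gate differences of 3.11 (SE 0.60) and 3.03 (SE 0.59) in control and Sox4cKO. Aurka was at 5.50 to 10.4 CPM in CD44minus and 29.7 to 39.6 in CD44plus. The partners of the anaphase-promoting complex were called in both genotypes. Ube2c, its ubiquitin-conjugating enzyme, was at 7.41, 7.08, 4.46 and 10.9 CPM in CD44minus and 107, 105, 90.2 and 101 in CD44plus, and rose by 3.87 (SE 0.67, edgeR adjusted p = 0.0140) in control and by 3.60 (SE 0.66, edgeR adjusted p = 0.0141) in Sox4cKO. That is 14.6-fold and 12.1-fold, the latter being the largest fold of the 36 in Sox4cKO. Cdc20, the activator that brings substrates to the complex, rose by 2.98 (SE 0.57) and 2.99 (SE 0.57), nearly alike in both genotypes.

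Of the 4 spindle checkpoint genes, which hold anaphase back until all chromosomes are attached, 1 was called in each genotype. This was Bub1b (BubR1), at 20.2, 16.5, 19.3 and 22.9 CPM in CD44minus and 137, 119.6, 109.6 and 150.3 in CD44plus, with differences of 2.81 (SE 0.65) and 2.62 (SE 0.64). Bub1, Mad2l1 and the kinase Ttk (Mps1) had differences of 1.66 to 2.52 in control and 2.02 to 2.29 in Sox4cKO that did not pass. Ttk was at 12.1, 3.93, 10.4 and 0.817 CPM in CD44minus, the last from 3 reads, and at 31.5, 17.7, 24.3 and 27.4 in CD44plus. Its CD44plus libraries were the most spread of the 36, 1.78-fold from lowest to highest.

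The chromosomal passenger complex, Aurora B (Aurkb) with survivin (Birc5) and the scaffold Incenp, corrects faulty attachments and later marks the cleavage plane. All 3 genes were called in control and Birc5 alone in Sox4cKO. Birc5 was at 8.76, 10.2, 12.9 and 11.7 CPM in CD44minus and 75.5, 78.5, 86.0 and 80.8 in CD44plus, and the Sox4cKO libraries lay above the controls in both gates. After background subtraction the genotypes overlapped in both gates, at 6.21, 8.90, 12.6 and 6.82 CPM in CD44minus and 78.0, 71.0, 90.0 and 69.2 in CD44plus. Incenp was at 18.2, 28.7, 26.7 and 54.2 CPM in CD44minus and 207, 223, 215 and 292 in CD44plus, with Sox4cKO replicate 2 highest in each gate. After background subtraction Sox4cKO replicate 1 was the highest in CD44minus, where Incenp was at 20.7, 30.9, 34.7 and 33.4 CPM.

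At the centromere, Cenpa, the histone H3 variant that marks it, had the largest control fold of the 36. It was at 0.674, 3.93, 2.97 and 8.45 CPM in CD44minus and 38.2, 55.9, 42.8 and 54.7 in CD44plus. The control CD44minus values are 1 and 10 reads, so the 18.4-fold difference (log2 4.20, SE 0.75, edgeR adjusted p = 0.0140) rests on few reads; in Sox4cKO, with 6 and 31 reads, it was 3.04 (SE 0.67). Ndc80 and Nuf2, outer kinetochore proteins that grip microtubules, were called in both genotypes, with log2 differences of 3.27 and 2.77 in control and 2.54 and 2.25 in Sox4cKO. The large kinetochore proteins Cenpe and Cenpf were read deeper, at 233 to 343 and 299 to 437 CPM in CD44plus. Their differences of 2.63 and 2.40 in control and 2.75 and 2.39 in Sox4cKO did not pass.

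Among the spindle motors and microtubule binders, 4 of 6 were called in control and 6 of 6 in Sox4cKO. Kif11 (Eg5), the motor that pushes spindle poles apart, was at 12.8, 15.7, 21.3 and 21.5 CPM in CD44minus and 209.6, 204, 171 and 229 in CD44plus, a difference of 3.85 (SE 0.74) in control and 3.22 (SE 0.71) in Sox4cKO. Nusap1, which bundles spindle microtubules, rose 10.3-fold and 10.5-fold. Kif4, a chromosome-bound kinesin, and Hmmr, a spindle assembly protein, were called in both genotypes as well. Tpx2, the activator of Aurora A on the spindle, was at 28.3, 25.2, 20.3 and 7.63 CPM in CD44minus and 128, 130.0, 124 and 163 in CD44plus. Both Sox4cKO CD44minus libraries lay below both controls, and its gate difference was 2.27 (SE 0.68) in control and 3.38 (SE 0.71, edgeR adjusted p = 0.0204) in Sox4cKO. Kif2c, which depolymerises misattached microtubules, had 2.08 in control and 2.16 in Sox4cKO, the latter called.

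The 5 cytokinesis genes had gate differences of 2.13 to 2.68 in control. Anln (anillin), Ect2, which activates RhoA at the cleavage furrow, and the kinesin Kif20a were called in control, and the midzone bundler Prc1 in Sox4cKO. Ect2 was at 16.2, 6.29, 15.4 and 12.3 CPM in CD44minus and 71.1, 69.2, 67.5 and 62.8 in CD44plus. Kif23, the kinesin of centralspindlin, was at 26.9, 29.9, 31.2 and 39.0 CPM in CD44minus and 125, 124, 98.5 and 117 in CD44plus, and its difference passed in neither genotype.

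Top2a, which untangles sister chromatids, and Mki67, the coat protein of mitotic chromosomes used as a marker of cycling cells, were the highest of the 36 per length in CD44plus (137 and 233 CPM per kb, against a median of 24.4). Top2a was at 31.0, 49.9, 46.1 and 71.1 CPM in CD44minus and 771, 691, 626 and 779 in CD44plus, 18.01-fold in control (log2 4.17, SE 0.96) and 11.98-fold in Sox4cKO (3.58, SE 0.94), both called. Mki67 was at 152, 155, 149 and 251 CPM in CD44minus and 2402, 2676, 1856 and 2462 in CD44plus. Its differences of 4.05 (SE 1.23) and 3.43 (SE 1.19) were among the largest yet did not pass (edgeR adjusted p = 0.084 and 0.146), and its standard errors were the largest of the 36. Mki67 alone made up 19.1% to 30.8% of the summed CPM of the 36 genes in CD44minus and 34.4% to 39.9% in CD44plus.

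Reads on the mitotic genes in CD44minus were few but mostly above background. The 4 libraries held 1118, 1741, 1578 and 2994 reads on the 36 genes, and the background measure would put 24.3%, 15.3%, 25.9% and 3.64% of them there. The exact Poisson 95% interval of the count lay above the predicted background for 33, 33, 34 and 34 of the 36 genes. In CD44plus background made up 0.108% to 0.625% of the reads on these genes. Intervals cover counting error only. Ccnb1 cleared the background in 1 CD44minus library, Cenpa and Ttk in 2, and Cdk1, Bub1 and Mad2l1 in 3. With background subtracted from the counts, edgeR called 28 and 29 of the 36 in control and Sox4cKO (8.12% and 7.44% of genes higher), with medians of 2.69 and 2.78.

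**Figure D3:**
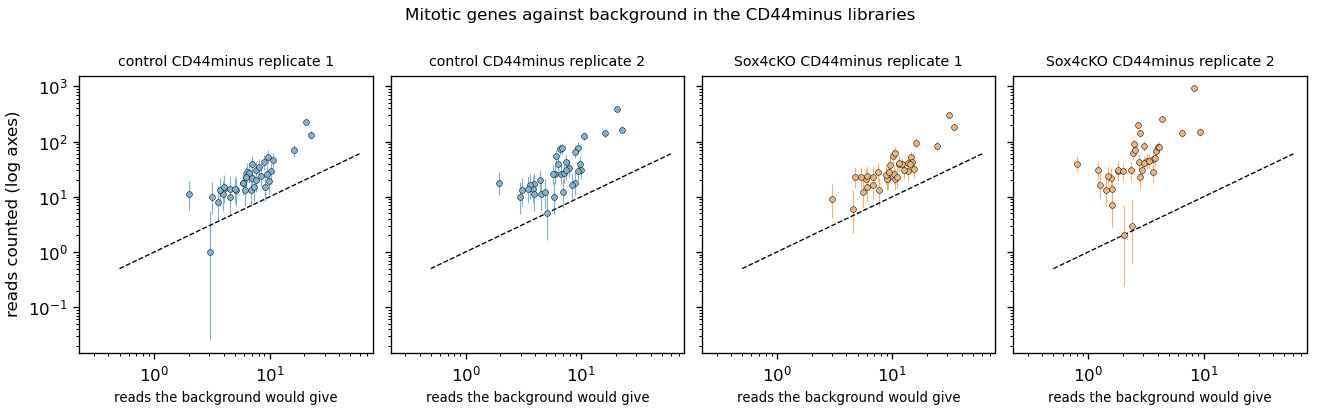
Reads counted on each of the 36 genes in the 4 CD44minus libraries (bars: exact Poisson 95% interval) against the reads that the background of receptor genes would give, both on log axes, with the dashed line at equality. The intervals of 33 or 34 of the 36 genes in each library lie above the line, and the distance is widest in Sox4cKO replicate 2.

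The other genes of the cycle gave a reference for the gate difference. Over all genes tested, 2.01% in control and 1.66% in Sox4cKO were called higher in CD44plus, with median log2 differences of -0.19 and -0.48. Of 85 further mitotic genes, 18 were called higher in CD44plus in each genotype, with medians of 1.87 in control and 1.77 in Sox4cKO. By the smallest adjusted p these were Cdca3 (3.39), Spc25 (3.08) and Smc2 (3.45) in control, and Ncapg (3.91), Tacc3 (3.06) and Kif22 (3.10) in Sox4cKO. Of 41 replication genes, which act in S phase, 21 and 24 were called, with medians of 2.44 and 2.70. The ratio of the summed CPM of the 36 mitotic genes to that of the replication genes was 1.46, 1.34, 1.55 and 1.22 in CD44minus and 1.87, 2.08, 1.60 and 1.67 in CD44plus, so that all CD44plus libraries lay above all CD44minus ones. Without Mki67 the ratios were 1.16, 1.03, 1.25 and 0.841 in CD44minus and 1.17, 1.25, 1.05 and 1.06 in CD44plus, which overlap.

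**Figure D4:**
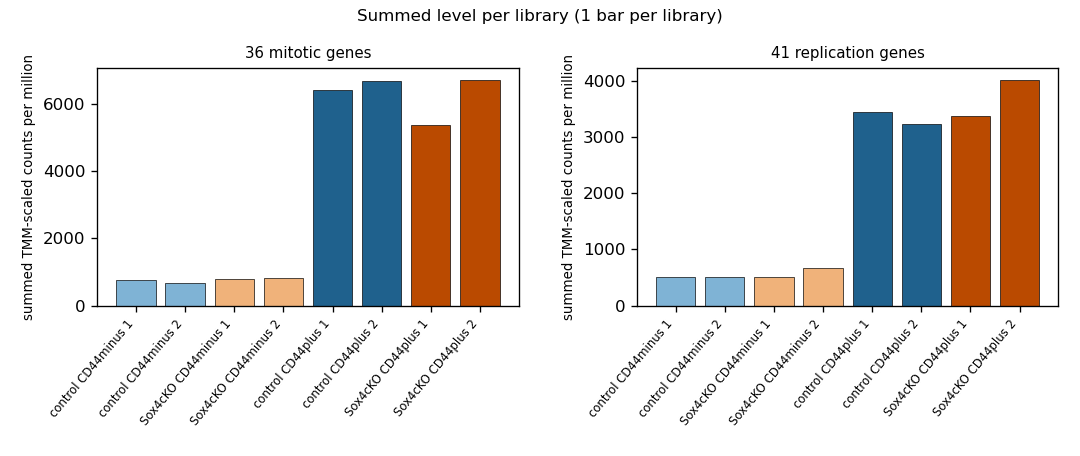
Summed TMM-scaled CPM of the 36 mitotic genes (left) and 41 replication genes (right), 1 bar per library. The CD44plus bars reach 5388 to 6739 for the mitotic genes against 684 to 816 in CD44minus, and 3227 to 4024 against 506 to 671 for the replication genes.

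The central comparison of the study asked what loss of Sox4 does in each gate, and for the mitotic genes no difference passed the test. In CD44plus, edgeR called 0 of 36 members between Sox4cKO and control, as it did of all 20427 genes (0.0%). Sox4 itself was thus not called, at 128 and 120.2 CPM in control against 17.8 and 25.7 in Sox4cKO. At an unadjusted p under 0.05 there were 0 members and 128 genes (0.627%), and DESeq2 and limma-voom also called 0 members. The median log2 difference was -0.05 over the 36 (13 positive) and under 0.01 in size over all genes, and single members ran from -0.26 for Cenpf to 0.27 for Ccnb1. In that fit, whose biological coefficient of variation was 0.616, the 95% interval of no member lay inside 2-fold either way.

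A fit of the 4 CD44plus libraries alone, with a coefficient of 0.335, also called 0 of the 36 (0.0997% of 17052 genes were called, 17 in all). At an unadjusted p under 0.05 it had 0 members and 5.07% of genes. There the 95% intervals were narrow enough to set limits. All 36 lay inside a log2 difference of 1 in either direction, the outermost bounds being -0.81 for Cdc25c and 0.91 for Ccnb1. Ccna2 differed by 0.02 (95% interval -0.37 to 0.40), Top2a by -0.06 (-0.44 to 0.33), Cdk1 by -0.03 (-0.44 to 0.38) and Plk1 by 0.07 (-0.33 to 0.47). The most negative members were Cenpf at -0.26 (-0.68 to 0.16), Cenpe at -0.25 (-0.68 to 0.19) and Mki67 at -0.24 (-0.65 to 0.18).

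**Figure D5:**
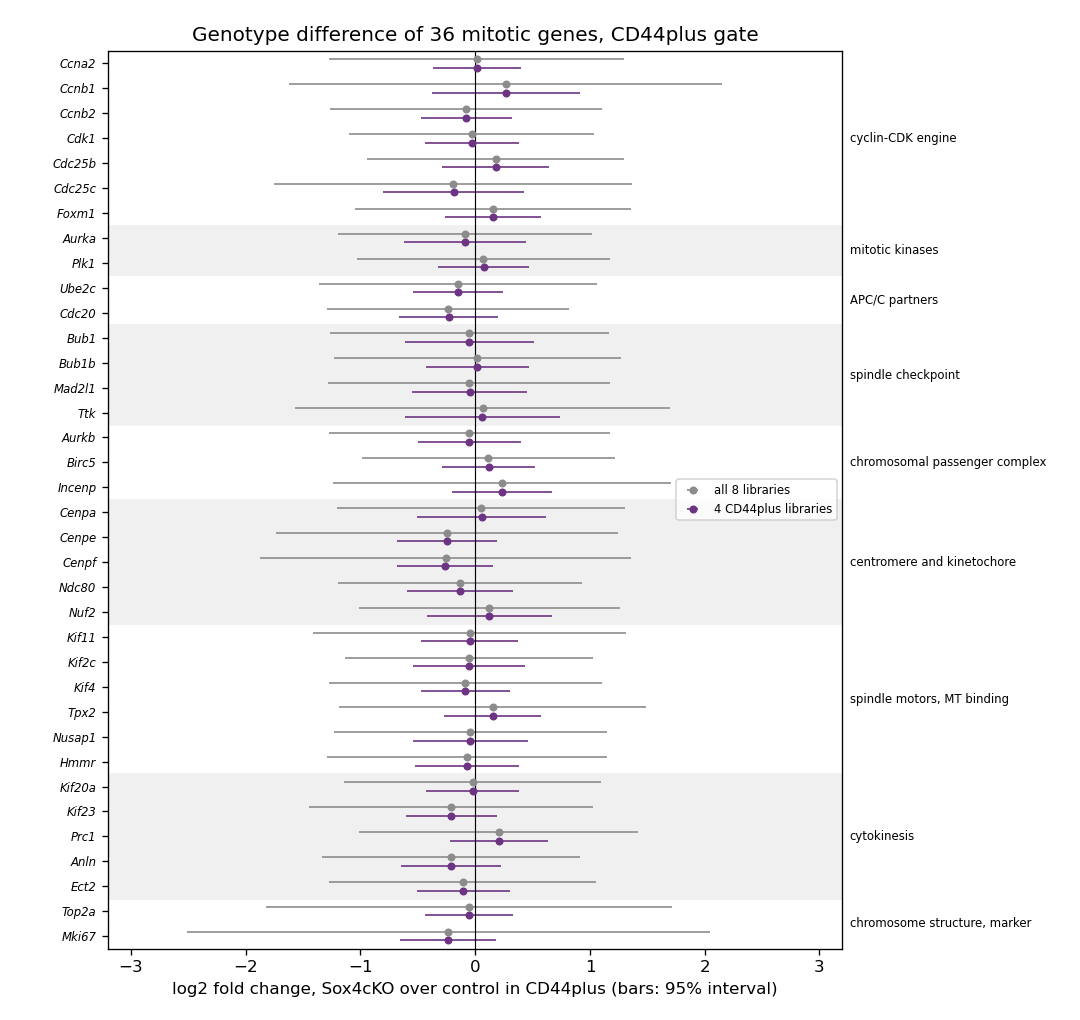
Log2 fold change of Sox4cKO over control in CD44plus for the 36 genes with 95% intervals, from the fit of all 8 libraries (grey) and of the 4 CD44plus libraries (purple). Every interval of both fits spans 0, and those of the 4-library fit lie between -0.81 and 0.91.

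The 2 Sox4cKO CD44plus libraries stood apart from each other. Replicate 1 was the lowest of the 4 CD44plus libraries for 21 of the 36 genes, a larger share than the 22.0% of all genes. Replicate 2 was the highest for 15 of the 36, also a larger share than the 29.5% of all genes. Mki67 shows this, at 1856 CPM in replicate 1 and 2462 in replicate 2, with the controls at 2402 and 2676. When replicate 2 was left out of the CD44plus fit, Mki67 was called lower in Sox4cKO (-0.45, SE 0.12, edgeR adjusted p = 0.0168, where 1.12% of genes were called), on a single Sox4cKO library. Both Sox4cKO libraries lay below both controls for 7 members (Cdc25c, Ube2c, Cdc20, Kif4, Kif23, Anln and Ect2), against 16.4% of genes, and above them for 2 (Ccnb1 and Birc5), against 14.2%. These counts depend on the scale, a comparison added after the data were seen. Without TMM factors 16 members lay below, Mki67, Top2a and Cdk1 among them, against 22.9% of genes, and Ccnb1 alone above, against 9.15%. After background subtraction 8 lay below (Anln, Cdc25c, Cenpe, Cenpf, Kif23, Mki67, Ndc80 and Ube2c), against 16.7%, and Ccnb1 and Incenp above, against 13.7%. Summed markers of other cells were highest in replicate 2 of Sox4cKO. The 10 markers of T cells and intraepithelial lymphocytes summed to 2022 and 3142 CPM in control against 2163 and 5185 in Sox4cKO, and the 6 of mast cells to 1887 and 3129 against 3640.0 and 17506. The 10 of B, plasma and myeloid cells summed to 184 and 346 against 311 and 773, and the 7 of stroma and endothelium to 195 and 266 against 183 and 466. Of the stroma and endothelium list only Vim (294 CPM) and Pecam1 (165) were highest in that replicate. Col1a1 (2.08), Col1a2 (0.853) and Kdr (1.23) were the lowest of the 4 CD44plus libraries there. None of these markers was at 0 in CD44plus, and their part in the levels of mitotic genes was not tested.

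In CD44minus the test called 0 of 36 members and 0 of 20427 genes (0.0%), and DESeq2 and limma-voom called 0 members. At an unadjusted p under 0.05 there were 0 members and 116 genes (0.568%). The median difference was 0.20 over the 36 and 0.19 over all genes, from -0.96 (SE 0.68) for Tpx2 to 1.22 (SE 0.76) for Cenpa. The sign of that median is not stable: it was -0.15 without TMM factors and -0.089 after background subtraction. Both Sox4cKO libraries lay above both controls for 6 members (Ccna2, Cdk1, Birc5, Ndc80, Kif11 and Kif23), against 6.52% of genes, and below them for 3 (Foxm1, Cenpe and Tpx2), against 5.94%. After background subtraction Ccna2 and Cdk1 still lay above, with Incenp (5.56% of genes), while Birc5, Ndc80, Kif11 and Kif23 overlapped, and 6 lay below (Cdc20, Cenpe, Foxm1, Prc1, Tpx2 and Ube2c), against 8.99%. Without TMM factors only Cenpa lay above (4.76%) and only Ube2c below (6.57%). Without Sox4cKO CD44minus replicate 1, which leaves the library that stood apart as the only one of its group, 5 members were called, where 37.6% of all genes were. They were Ccnb1 (-3.16), Cdc25c (-2.06), Ttk (-3.19) and Tpx2 (-1.82) lower and Cenpa (1.65) higher. Those 4 lower genes had 2, 7, 3 and 28 reads in that library.

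The genotype difference itself was compared between the gates as an interaction in edgeR. It gave 0 calls among the 36 and 0 among all genes (0.0%), 0 members at an unadjusted p under 0.05, and 0 members with DESeq2 and with limma-voom. The median was -0.26 over the 36 and -0.37 over all genes. The members furthest from 0 were Cenpa at -1.16 (SE 0.97) and Tpx2 at 1.11 (SE 0.93).

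Several members share sequence or place with other counted genes, and how reads were assigned by strand is not given in the sources used here. In GENCODE annotation of GRCm38, 8 of the 36 overlap another counted gene, Ccna2 with Exosc9, Cdc25b with Spef1, Ube2c with Tnnc2, Cdc20 with Elovl1, Kif4 with Pdzd11, Nusap1 with Oip5, Kif20a with Cdc23 and Prc1 with Rccd1. The share of 50-base words found in other genes was 31.2% for Kif20a, 26.6% for Prc1, 16.2% for Kif4 and 15.9% for Ccna2. The levels of these genes may therefore include or lack reads of the neighbour, and reads placed at several sites are counted for neither.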

How the data were processed

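RNA of 8 libraries (2 per group) was analysed from the deposited tables of raw read counts per gene symbol. Sequencing was of total RNA in a stranded low-input protocol, per the labels' protocols. Tools listed in the submitters' processing notes, with no settings, are HTSeq 0.6.1p1, STAR 2.2.5b, Trimmomatic 0.36 and bcl2fastq 2.17.4, with the mm10 build. Of the reads that HTSeq placed at 1 site, 64.6% to 96.6% were counted to no gene, and these summary lines were left out of totals and tests. A count of 0 allows up to 3 counts, 0.227 to 3.39 CPM.

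Counts were fitted in R 4.3.3 with edgeR 4.0.16: filterByExpr with a minimum count of 10, TMM scaling, glmQLFit and glmQLFTest over the 4 groups in all 8 libraries, and Benjamini-Hochberg adjustment over 20427 genes. A gene is called at an adjusted p of at most 0.05, and all 36 members passed the filter. Alternatives were DESeq2 1.42.0, limma-voom (limma 3.58.1), other scaling factors, no filter, background subtraction, blocks, fits of 4 libraries and each library left out. Background is the reads per kb of coding sequence on receptor genes times each gene's transcript length. The fit was also run on simulated counts with large planted changes only and less spread than the fit of all 8 libraries found. That run does not bear on small differences.

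The 2 gates of a genotype and replicate number share an animal, since the names given to their deposited tables carry the same animal number. Deviations from the group means correlated across genes at 0.103 (control) and 0.526 (Sox4cKO) between the gates of an animal. Control and Sox4cKO libraries share only a number. The members, the other gene lists and the rule for naming genes (every member, and up to 3 other mitotic genes per comparison) were chosen with earlier results of these data known.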

Additional observations from a re-analysis of the deposited data

Results flagged for a closer look

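Kif23, a kinesin of cytokinesis, had genotype differences of opposite sign in the gates on TMM-scaled CPM, with no call in either. Its Sox4cKO libraries (98.5 and 117 CPM) lay below both controls (125 and 124) in CD44plus and above them in CD44minus (31.2 and 39.0 against 26.9 and 29.9). After background subtraction the CD44minus libraries overlapped (41.0 and 23.9 against 34.1 and 32.3), as they did without TMM factors. The difference between the gates was -0.51 on the log2 scale (SE 0.85) and did not pass edgeR's interaction test (adjusted p = 0.9999).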

How the results depend on the processing

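The gate difference kept its positive sign for all 36 genes in both genotypes under every alternative run, while the number of calls moved. In control, the 22 calls became 34 when only the 4 control libraries were fitted and ranged from 0 to 34 with 1 library left out. In Sox4cKO, the 18 calls became 29 after background subtraction, 32 with the animal as a replicate block, 0 in the fit of 4 libraries, 29 with DESeq2 and 32 with limma-voom (2.88% of genes higher), and ranged from 0 to 36 with 1 library left out. The animal block gave 30 calls in control. The median log2 gate difference in control (2.65) was 2.31 with DESeq2 size factors, 2.04 without scaling factors, 1.82 with upper-quartile scaling, 2.46 in the fit of 4 libraries, 2.31 with DESeq2 and 2.41 to 2.91 with 1 library left out. In Sox4cKO (2.39) it was 2.15, 2.16 and 1.96 under the same 3 scalings, 2.78 after background subtraction, 2.57 with the animal block, 2.15 with DESeq2, 2.61 with limma-voom and 2.34 to 2.81 with 1 library left out. Scaling also moved all genes. In control their median went from -0.19 to -0.52, -0.77 and -1.01 under these scalings, and calls split 411 higher to 91 lower with TMM, 383 to 176 with DESeq2 size factors, 1416 to 675 without factors and 380 to 504 with the upper quartile. In Sox4cKO the splits were 339 to 190, 329 to 312, 1301 to 738 and 409 to 576. DESeq2 itself gave 1144 to 1080 in control and 721 to 1060 in Sox4cKO.

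For the genotype difference in CD44plus the count of 0 held in every alternative but the CD44plus fit without Sox4cKO replicate 2, added after the data were seen, which had 1. Its median (-0.05) was -0.16 without scaling factors and -0.12 with the upper quartile, ranged from -0.14 to -0.017 with 1 of 8 libraries left out, and was 0.050 and -0.13 in the CD44plus fits without Sox4cKO replicate 1 and 2. Incenp (0.23) ranged from -0.0026, without Sox4cKO CD44plus replicate 2, to 0.33. In CD44minus the count ranged from 0 to 5 with 1 library left out. Its median (0.20) was -0.15 without scaling factors, -0.16 with the upper quartile, -0.089 after background subtraction, -0.081 in the fit of 4 libraries and -0.081 to 0.37 with 1 library left out. Ccnb1 (-0.65) turned to 0.73 without control CD44minus replicate 1 and to 0.37 without Sox4cKO CD44minus replicate 2, and was -3.16 without Sox4cKO CD44minus replicate 1. With the replicate number as a block, which pairs no animals across genotypes (same-numbered control and Sox4cKO libraries correlated at 0.27 in CD44plus and 0.60 in CD44minus), both gates gave 0 calls among members. The interaction had 0 calls throughout, and its median (-0.26) was 0.0091 without scaling factors, 0.074 with the upper quartile, -0.063 after background subtraction and -0.38 to -0.024 with 1 library left out. The cause of these shifts was not tested.

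Without TMM factors the summed CPM of the 36 genes was 1262, 748, 1343 and 430.0 in CD44minus and 5879, 6116, 4852 and 5373 in CD44plus. After background subtraction it was 876, 691, 921 and 492 in CD44minus and 6680, 6086, 5658 and 5773 in CD44plus. On TMM-scaled CPM without subtraction, Sox4cKO CD44minus replicate 2 was thus the highest of its gate. It was the lowest without TMM factors and after background subtraction, where the CPM are also TMM-scaled. Depth limits the CD44minus gate, where single members rest on 1 to 923 reads.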
